A study of Mus musculus with 6 samples.

Results

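Glutathione is the main small thiol of animal cells, and 10 genes that make it, recycle it, spend it and break it down were followed here in mouse embryos at the 2-cell stage, with and without arsenite. They were picked by symbol from the deposited count table: Gclc, Gclm, Gss, Gsr, Gpx1, Gpx4, Gpx6, Gstm6, Gsto1 and Ggct, which are 10 of its 18660 rows. RNA-seq libraries of poly(A) RNA came from 3 samples of embryos whose G1-PLUS medium held sodium arsenite at 5 µM, a salt of trivalent arsenic, and from 3 control samples labelled 0 µM. Strain, age and the number of embryos behind a library were not in the labels, nor whether replicates came from separate cultures, and p-values therefore speak only of the spread among the 6 libraries, which may be technical. The comparison asks how arsenite alters the RNA of the embryo while stored maternal transcripts are being replaced by its own.

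Glutathione is built in successive steps. Glutamate-cysteine ligase joins glutamate to cysteine, and glutathione synthetase adds glycine. Peroxidases then oxidise glutathione to remove hydrogen peroxide and lipid peroxides, glutathione reductase returns the oxidised form to the reduced one with NADPH, and transferases attach glutathione to electrophiles. Trivalent arsenic binds thiols, glutathione among them, and the early embryo is known to draw largely on glutathione stored in the egg.

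Of the 10 genes, 3 rose with arsenite and 1 fell: Gpx6, Gstm6 and Ggct were higher and Gsr was lower than in controls (edgeR quasi-likelihood test over all 12582 tested genes, Benjamini-Hochberg adjusted p under 0.05). All 10 were tested, but Gstm6 entered the test through arsenite libraries alone, and Gpx6 needed arsenite libraries to enter. The filter thus favoured a rise of these genes, also in the counts of members given here. Over all tested genes 9.43% were called higher and 7.26% lower, 16.7% in either direction. The members were chosen with earlier results of these data known, so these shares are given for scale only. The 3 synthesis genes Gclc, Gclm and Gss, the selenium-dependent peroxidases Gpx1 and Gpx4, and Gsto1 did not pass. Arsenite libraries lay above every control for 4 members and below every control for 2, against 21.9% and 19.7% of tested genes. Levels below are CPM, counts brought to a common library size with TMM factors, and fold changes are log2, arsenite minus control. The median log2 fold change was 0.05 for the members and 0.07 for all tested genes. In such bulk libraries fewer cells holding a transcript and less of it per cell cannot be told apart.

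Library totals ran from 7758507 to 8519265 counts, and 3 counts, the counting floor, were 0.335 to 0.438 CPM. The labels name no molecular identifiers, so a count is not a molecule and this floor covers counting error only. The labelled stage was checked with 13 markers of the 2-cell embryo, each detected in every library, whose summed level was 1656 to 3979 CPM with arsenite and 922.9 to 1259 CPM in controls. Of these 13 genes 8 were called higher, with a median log2 fold change of 1.53. A list of 17 maternal and oocyte transcripts summed to 5984 to 8785 CPM with arsenite and 1334 to 2435 CPM in controls. Btg4 and Bmp15 weighed most in that sum, with means of 4431 and 1528 CPM with arsenite and 724.8 and 331.8 CPM in controls. Of the list's 16 tested genes 7 were called higher and none lower, and 14 had a positive log2 fold change. Zp3 (−0.70) and Padi6 (−0.09) were negative. In the 2-cell list 11 of 13 were positive, while Tdpoz1 (−0.02) and Tmem92 (−0.13) were negative. Both sums thus moved with the treatment, but not every gene did. Cumulus and granulosa cell markers summed to 32.4 to 50.8 CPM with arsenite and 38.5 to 39.8 CPM in controls over 9 genes, with Has2 and Inhba at 0 in every arsenite library and Cyp11a1 and Hsd3b1 at 0 in every control. Has2 and Inhba had only 3 counts each over all controls, so their zeros with arsenite say little, and Hsd3b1 had 14 over the arsenite libraries. Most of that sum was Amhr2, and the other 8 genes summed to 11.6 to 17.2 CPM with arsenite and 2.41 to 6.83 CPM in controls. Cyp11a1, with 62 counts in the arsenite libraries, was called higher, but it had entered the test through those libraries alone. Of the other tested markers Cyp19a1 and Tnfaip6 had log2 fold changes of 2.66 and 2.97 (adjusted p = 0.182 and 0.128 by edgeR). Both had few control counts, 15 and 11 in sum, and needed arsenite libraries to enter the test, which favoured a rise. Amhr2 and Star went the other way, at −0.38 and −0.15 (adjusted p = 0.4615 and 0.9345 by edgeR). The part that 2-cell transcripts, maternal RNA or these cells play in the results below was not tested. Of all calls 56.5% were rises, but 46.5% when libraries were scaled by size alone, which put the median change over all genes at −0.05 (log2).

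The peroxidases among the members are not alike at their active site, which is why their codons are shown. In selenium-dependent peroxidases the catalytic residue is selenocysteine, written in the mRNA as TGA, a codon that elsewhere ends translation. The annotation marks 1 such codon in Gpx1 and 1 in Gpx4, and 0 in Gpx6. An alignment of the translated coding sequences of Gpx1 and Gpx6 put TGT, a cysteine codon, at the matching place in Gpx6. Each line gives 15 coding bases before and 15 after the active-site codon, which is in capitals, from the GENCODE transcripts (GRCm38), at codon 47 of Gpx1, 129 of Gpx4 and 73 of Gpx6.
Gpx1 (chromosome 9): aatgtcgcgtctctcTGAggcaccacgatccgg
Gpx4 (chromosome 10): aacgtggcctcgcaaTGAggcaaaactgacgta
Gpx6 (chromosome 13): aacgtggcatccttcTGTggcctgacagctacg

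The promoters of the 3 genes that rose were also read, since NRF2, the regulator of many glutathione genes, binds the antioxidant response element. Its core was searched as TGACNNNGC on both strands, from 250 bases before to 50 bases after each RefSeq start listed in a promoter table (GRCm38.p6). RefSeq windows were found for 8 of the 10 members. The core occurred in 2 of these 8, Ggct and Gclm, against 14% of the 27025 genes in the promoter table. Ggct held it on the strand opposite to the gene, read along the gene as GCGACGTCA with its first base 174 bases before the start, and on the gene's own strand as TGACGCTGC from base 6 after the start. Gclm held it on the opposite strand as GCACCGTCA, with the first base 134 bases before the start. No match was found in the windows of Gpx6 and Gstm6, which says only that these letters are not there. The Gpx6 window, from 21311953, lies inside the RefSeq gene, which begins at 21295465. The bases around that upstream end were not read. The 280 bases from 250 before to 30 after the start are given for the genes that rose, with the core in capitals. Gstm6 has 3 RefSeq start windows, and the one farthest upstream is given.
Ggct (chr6:54992838-54993117, strand minus): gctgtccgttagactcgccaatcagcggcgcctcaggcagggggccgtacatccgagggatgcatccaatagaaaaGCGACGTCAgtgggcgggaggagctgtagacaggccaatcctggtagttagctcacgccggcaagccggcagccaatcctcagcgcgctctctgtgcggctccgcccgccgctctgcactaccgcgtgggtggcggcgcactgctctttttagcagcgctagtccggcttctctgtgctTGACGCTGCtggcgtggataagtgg
Gpx6 (chr13:21311953-21312232, strand plus): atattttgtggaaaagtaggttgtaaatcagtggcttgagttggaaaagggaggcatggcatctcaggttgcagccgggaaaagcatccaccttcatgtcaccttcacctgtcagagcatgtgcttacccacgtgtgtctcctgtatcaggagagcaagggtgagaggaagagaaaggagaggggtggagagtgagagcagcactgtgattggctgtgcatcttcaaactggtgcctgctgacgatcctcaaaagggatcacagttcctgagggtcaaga
Gstm6 (chr3:107953437-107953716, strand minus): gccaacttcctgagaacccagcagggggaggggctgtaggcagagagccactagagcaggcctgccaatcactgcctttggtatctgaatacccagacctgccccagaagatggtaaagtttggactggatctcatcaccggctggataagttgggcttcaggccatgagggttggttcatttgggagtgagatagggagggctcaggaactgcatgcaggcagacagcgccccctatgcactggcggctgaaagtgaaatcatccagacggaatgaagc

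None of the 3 genes of synthesis passed the test. Gclc, the catalytic subunit of glutamate-cysteine ligase and the rate-limiting enzyme (chromosome 9, 77754535 to 77794489, GRCm38.p6 as for all positions here), had 20.3, 24.2 and 11.7 CPM in arsenite replicates 1, 2 and 3, against 57.1, 31.9 and 19.4 CPM in control replicates 1, 2 and 3. The groups overlapped, because arsenite replicates 1 and 2 lay above control replicate 3. Its log2 fold change was −0.95 ± 0.47 (SE, adjusted p = 0.179 by edgeR), and the arsenite library was the lower one in each same-numbered pair.

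Gclm, the modifier subunit that raises the ligase's affinity for glutamate (chromosome 3, 122245487 to 122267215), had 66.4, 41.0 and 35.8 CPM with arsenite, against 26.1, 33.3 and 33.4 CPM in controls. Every arsenite library was above every control, by a narrow margin in replicate 3. Its log2 fold change of 0.62 ± 0.35 did not pass (SE, adjusted p = 0.235 by edgeR). The ratio of Gclc to Gclm, each per kilobase of exon, was 0.512, 0.986 and 0.546 with arsenite and 3.65, 1.603 and 0.969 in controls. These ratios overlapped by a small margin, were chosen after the values were seen, and were not tested.

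Gss, glutathione synthetase, which completes the molecule (chromosome 2, 155563181 to 155592810), had 2.67, 10.6 and 20 CPM with arsenite and 9.51, 30.04 and 18.3 CPM in controls. The groups overlapped, and arsenite replicate 3 was above control replicate 3. Its log2 fold change was −0.80 ± 0.67 (SE, adjusted p = 0.428 by edgeR). Exons of Gss share 913 bases with genes on the opposite strand, and those of Gclm 296 bases with an opposite and 244 bases with a same-strand gene. Whether counting used the strand is not given in the sources used here, and such reads may belong to the neighbours.

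Gsr was the member that fell. It encodes glutathione reductase, which regenerates reduced glutathione with NADPH (chromosome 8, 33653238 to 33698162). Gsr had 14.9, 15.2 and 8.03 CPM in arsenite replicates 1, 2 and 3, against 40.3, 40.0 and 29.6 CPM in control replicates 1, 2 and 3. The groups did not overlap, and every arsenite library was well below the lowest control. Its mean was 12.7 ± 4.04 CPM with arsenite and 36.7 ± 6.08 CPM in controls (SD, n = 3 each), and it fell by 1.53 ± 0.40 on the log2 scale (SE, adjusted p = 0.0284 by edgeR). The call was lost without control replicate 1, 2 or 3 (adjusted p = 0.0822, 0.0737 and 0.0672) and without arsenite replicate 1 or 3 (0.0787 and 0.0637), with log2 fold changes of −1.75 to −1.28 over the fits with a library left out.

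**Figure D1:**
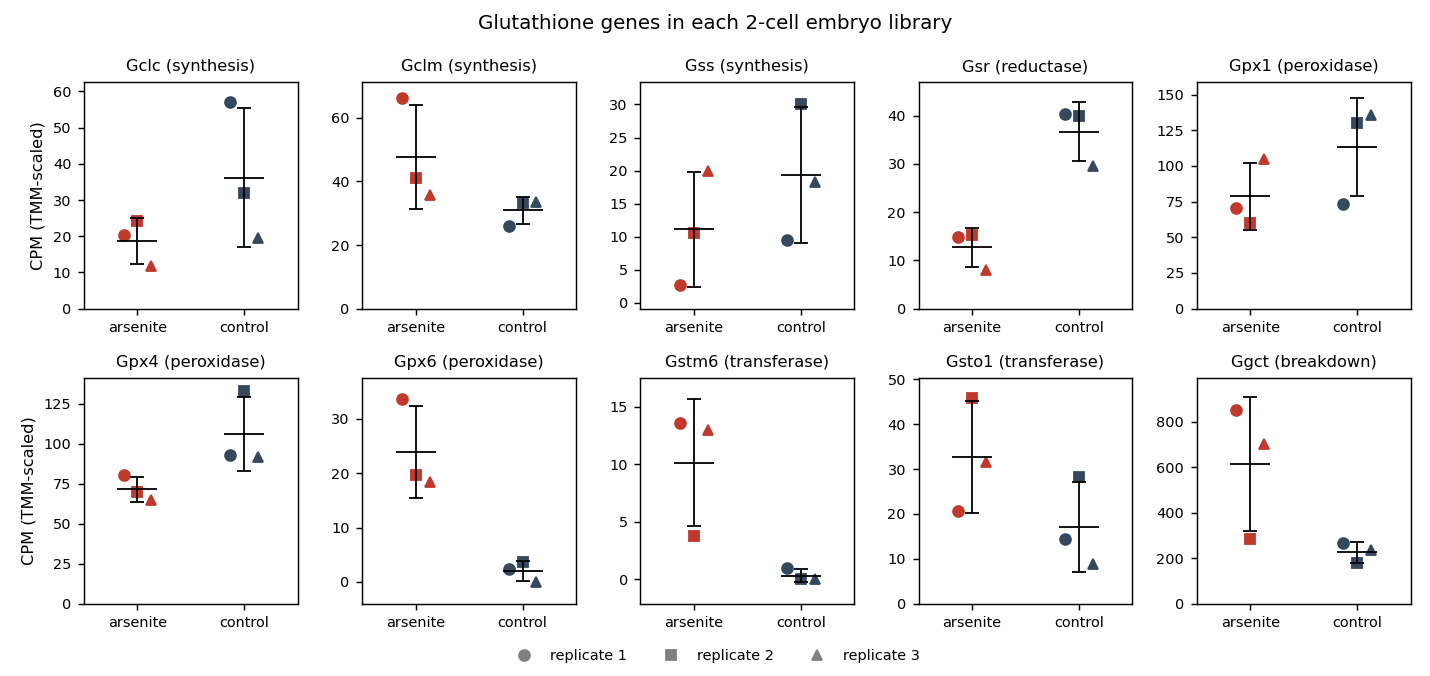
CPM of the 10 glutathione genes (y axis, TMM-scaled, a scale for each panel) in the 3 arsenite and the 3 control libraries (x axis). Symbols mark replicate numbers and the bar with whiskers the mean and SD. Gsr lies between 8.03 and 15.2 CPM with arsenite and between 29.6 and 40.3 CPM in controls, while Gpx6 is at most 3.69 CPM and Gstm6 at most 0.963 CPM in controls.

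Among the peroxidases Gpx6 rose, while Gpx1 and Gpx4 did not pass; whether Gpx6 differed from them in its change was not tested. Gpx1, the cytosolic and mitochondrial enzyme for hydrogen peroxide (chromosome 9, 108339080 to 108340342), had 70.3, 60.2 and 105.1 CPM with arsenite and 73.6, 129.8 and 135.9 CPM in controls. The groups overlapped, since arsenite replicate 3 was above control replicate 1. Its log2 fold change was −0.53 ± 0.35 (SE, adjusted p = 0.308 by edgeR).

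Gpx4, which reduces lipid peroxides within membranes (chromosome 10, 80047166 to 80056439), had 80.2, 69.8 and 65.0 CPM with arsenite and 93.3, 133.1 and 92.0 CPM in controls. Every arsenite library was below every control, but the difference did not pass, at a log2 fold change of −0.57 ± 0.29 (SE, adjusted p = 0.198 by edgeR). Of the 150-base windows of Gpx4 transcripts, 17.4% also occur in Gpx4-ps2, a pseudogene, so reads from them could have been split.

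Gpx6, a peroxidase known from the olfactory epithelium (chromosome 13, 21295465 to 21319625), had 33.6, 19.6 and 18.4 CPM in arsenite replicates 1, 2 and 3, against 2.29, 3.69 and 0 CPM in control replicates 1, 2 and 3. In counts this was 562 over the arsenite libraries and 52 over the controls. Every arsenite library was above every control, and control replicate 3 had no count, so the gene needed arsenite libraries to enter the test. It rose by 3.57 ± 0.92 on the log2 scale (SE, adjusted p = 0.0276 by edgeR), and with that control set at the floor of 3 counts the mean was 11.3-fold higher. The call was lost without control replicate 1 (adjusted p = 0.0803) and without arsenite replicate 1 (0.108), and the log2 fold change ranged from 2.92 without control replicate 3 to 4.34 without control replicate 2. None of its 150-base windows occurred in a transcript of another gene.

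Of the transferases, Gstm6 rose and Gsto1 did not pass. Gstm6, a mu-class enzyme (chromosome 3, 107938847 to 107953641), had 13.6, 3.76 and 12.99 CPM with arsenite, against 0.963, 0 and 0 CPM in controls. In counts these were 107, 33 and 89 with arsenite and 8, 0 and 0 in controls, so arsenite replicate 2 was the lowest of its group and still above every control. Gstm6 rose by 4.93 ± 1.24 on the log2 scale (SE, adjusted p = 0.0248 by edgeR), a value that rests on 8 control counts, and with the empty controls at the floor of 3 counts the mean was 18.2-fold higher. The gene entered the test through the arsenite libraries alone, since no control reached the level the filter asks for. Without control replicate 2 or 3 (adjusted p = 0.0627 and 0.0762) or arsenite replicate 1 or 3 (0.0974 and 0.0586) the call was lost. Without control replicate 1, which left only empty controls, the fitted log2 fold change was 9.35.

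Gsto1, an omega-class transferase whose human counterpart reduces methylated arsenic (chromosome 19, 47854973 to 47864790), had 20.7, 45.7 and 31.7 CPM with arsenite and 14.3, 28.3 and 8.78 CPM in controls. Arsenite replicate 1 lay below control replicate 2, so the groups overlapped, although the arsenite library was higher in all 3 same-numbered pairs. Its log2 fold change was 0.93 ± 0.49 (SE, adjusted p = 0.204 by edgeR).

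Ggct was the member with the most counts. It encodes gamma-glutamylcyclotransferase, which turns gamma-glutamyl amino acids into 5-oxoproline on the way out of the cycle (chromosome 6, 54985095 to 54992960). Ggct had 850.1, 285.1 and 702.9 CPM in arsenite replicates 1, 2 and 3, against 268.2, 177.2 and 234.9 CPM in control replicates 1, 2 and 3. Arsenite replicates 1 and 3 were far above every control, and replicate 2 was just above the highest. The mean was 613 ± 293 CPM with arsenite and 227 ± 46.0 CPM in controls (SD, n = 3 each), a rise of 1.43 ± 0.40 on the log2 scale (SE, adjusted p = 0.0342 by edgeR). Without control replicate 1, 2 or 3 (adjusted p = 0.0745, 0.0964 and 0.115) or arsenite replicate 1 or 3 (0.141 and 0.0765) the call was lost. Over the fits with a library left out its log2 fold change was 1.08 to 1.70.

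Per kilobase of annotated exon, the order of the mean levels differed between the groups. With arsenite Ggct stood first at 79.1 ± 37.9 CPM per kilobase, before Gpx1 at 54.5 ± 16.4 and Gpx4 at 41.6 ± 4.53, followed by Gpx6 at 17.4 ± 6.16 and Gsto1 at 16.2 ± 6.20 (SD, n = 3 each). In controls Gpx1 stood first at 78.5 ± 23.8 CPM per kilobase, before Gpx4 at 61.6 ± 13.6, Ggct at 29.3 ± 5.95 and Gsr at 13.3 ± 2.21 (SD, n = 3 each). Gpx1 and Gpx4 differed by less than the larger of their SDs in both groups, as did Ggct and Gpx1, and Gpx6 and Gsto1, with arsenite. Gclm at 7.58 ± 2.60, Gstm6 at 5.09 ± 2.77, Gclc at 4.98 ± 1.70 and Gsr at 4.61 ± 1.47 CPM per kilobase followed with arsenite, the last 3 closer than their SDs (n = 3 each). Gclm and Gstm6 also differed by less than the larger of their SDs. In controls Gclc had 9.60 ± 5.10, Gsto1 8.46 ± 4.96, Gclm 4.92 ± 0.663, Gss 3.26 ± 1.74 and Gpx6 1.46 ± 1.36 CPM per kilobase (SD, n = 3 each). From Gsr down to Gss, each gene in controls differed from the next by less than the larger of their SDs. That part of the order is not resolved. The lowest were Gss at 1.88 ± 1.47 CPM per kilobase with arsenite, and Gstm6 at 0.161 ± 0.280 in controls (SD, n = 3 each). Exon lengths are the GENCODE union, which for Ggct includes long transcripts and so lowers its level. The union was longest for Ggct (7.745 kb), Gclm (6.291 kb) and Gss (5.915 kb). Where it exceeds the transcripts present the level is lowered, so the last place of Gss with arsenite depends on it.

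A fit with the replicate number as a block called the same 3 members higher and the same 1 lower, where it called 13.4% of all tested genes higher and 12.6% lower. With the block the edgeR adjusted p was 0.01075 for Gsr, 0.00925 for Gpx6, 0.00832 for Gstm6 and 0.00998 for Ggct. Values elsewhere come from the fit without it unless the block is named.

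**Figure D2:**
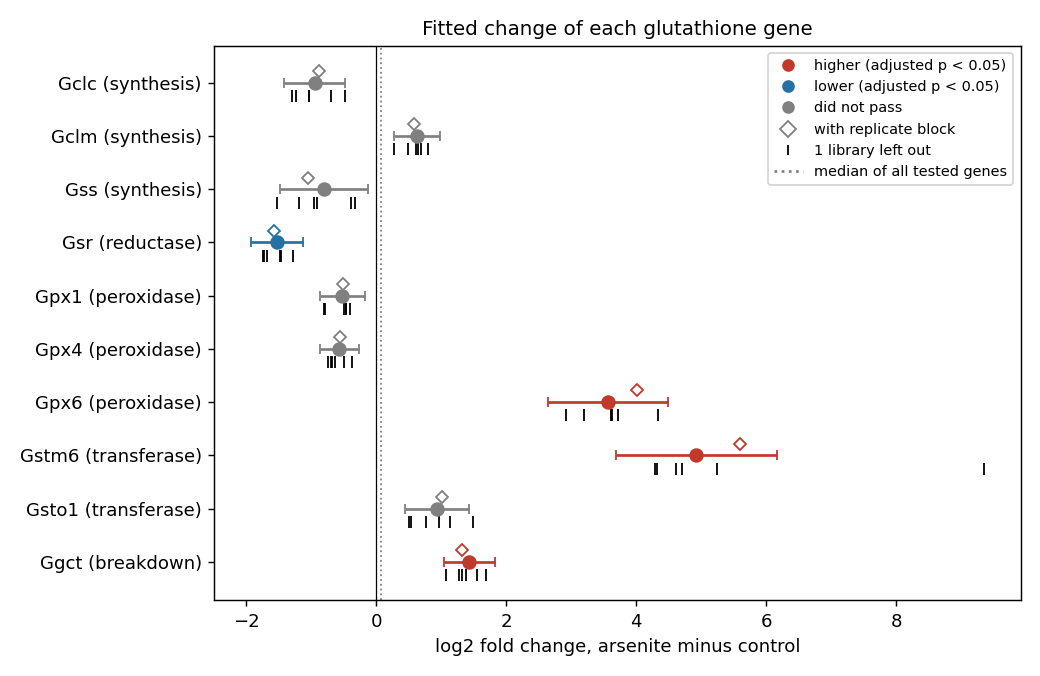
Log2 fold change, arsenite minus control (x axis), of the 10 genes (y axis) with SE as whiskers. Filled points are the edgeR fit without the block, open diamonds the fit with it, ticks the 6 fits with 1 library left out, and the dotted line the median of all tested genes (0.07). Gpx6, Gstm6 and Ggct lie to the right and Gsr to the left in every fit shown, and the tick at 9.35 for Gstm6 is the fit without control replicate 1.

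Beyond the members, 102 other genes of the pathway were in the table, grouped by role, of which 79 were tested, 17 rose and 6 fell. Over all tested genes 9.43% were called higher and 7.26% lower, and these shares stand beside each list below. Whether a list departs from them was not tested, and the lists were chosen with earlier results of these data known. The median log2 fold change of the 79 tested genes was 0.10. Of the 13 tested transferases 6 rose and none had a lower call, also at an unadjusted p under 0.05 (8 higher) or by DESeq2 (7 higher). Their median log2 fold change was 2.17, and 12 of the 25 in the table were too low to test. With single libraries left out, 0 (without arsenite replicate 1) to 5 rose. Of these 13, 3 (Gstz1, Mgst1 and Ltc4s) had passed the filter through arsenite libraries alone, so they had to be higher there. Without them 4 of 10 rose and the median log2 fold change was 1.86. Among these 10, Gstk1, Gstm1 and Gsto2, picked out after their values were seen, lacked the filter's level in some control. They needed arsenite libraries to pass, and had log2 fold changes of 1.98, 2.37 and 2.17 without a call. The median of the 10 may thus still be raised by the filter.

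Mgst3, a membrane-bound transferase, had 136.8, 17.2 and 134.3 CPM with arsenite and 6.14, 4.02 and 13.3 CPM in controls, and rose by 3.62 ± 0.73 on the log2 scale (SE, adjusted p = 0.012 by edgeR). Arsenite replicate 2 was the lowest of its group and still above the controls. The call was lost without arsenite replicate 1 (adjusted p = 0.0519). Mgst1, a related enzyme of the endoplasmic reticulum and outer mitochondrial membrane, had 69 counts over the arsenite libraries and 0 over the controls, at least 8.11-fold higher with each control at the floor of 3 counts (edgeR adjusted p = 0.0188). Without control replicate 3 or arsenite replicate 1 it lost its call (highest adjusted p = 0.0719). Gstm5, another mu-class enzyme, chosen after its values were seen, had 187.1, 66.2 and 286.8 CPM with arsenite and 64.9, 21.6 and 29.5 CPM in controls, without overlap. It rose by 2.22 ± 0.55 on the log2 scale (SE, adjusted p = 0.024 by edgeR), and lost its call without control replicate 2 or 3 or arsenite replicate 1 or 3 (highest adjusted p = 0.0974), with log2 fold changes of 1.71 to 2.77 over all 6 libraries left out.

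Enzymes of glutathione breakdown had calls in both directions. Of 7 tested beside Ggct, 1 rose and 1 fell, with a median log2 fold change of −0.95. Chac2, a cyclotransferase that cleaves glutathione itself, had 39.4, 15.6 and 17.2 CPM with arsenite and 7.95, 2.23 and 5.37 CPM in controls, without overlap. It rose by 2.22 ± 0.59 on the log2 scale (SE, adjusted p = 0.0308 by edgeR), and lost its call without control replicate 2 or 3 or arsenite replicate 1 (highest adjusted p = 0.151), with log2 fold changes of 1.64 to 2.65 over all 6 libraries left out. Cndp2, a dipeptidase that splits cysteinylglycine, had 18.7, 36.2 and 22.2 CPM with arsenite and 66.5, 92.2 and 62.3 CPM in controls, and fell by 1.52 ± 0.36 on the log2 scale (SE, adjusted p = 0.021 by edgeR). Its call was lost without control replicate 2 or 3 or arsenite replicate 1 or 3 (highest adjusted p = 0.091).

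Of 9 tested reductases, glutaredoxins and thioredoxins beside Gsr, 2 rose, with a median log2 fold change of 0.34, and DESeq2 called 1 lower. Glrx, the cytosolic glutaredoxin that removes glutathione from proteins, had 286.4, 154.1 and 138.7 CPM with arsenite and 27.8, 13.2 and 18.8 CPM in controls. Each arsenite library was well above each control, and the rise of 3.28 ± 0.42 on the log2 scale (SE, adjusted p = 0.00416 by edgeR) kept its call whichever library was left out (highest adjusted p = 0.0323). Txnrd3, a reductase that acts on thioredoxin and glutathione, averaged 10.4 ± 1.33 CPM with arsenite and 1.82 ± 0.928 CPM in controls (SD, n = 3 each, edgeR adjusted p = 0.0254). It lost its call without control replicate 2 or 3 or arsenite replicate 1 or 2 (highest adjusted p = 0.1). The other tested peroxidases, Gpx3 and Gpx7, had log2 fold changes of 0.75 ± 0.55 and −0.08 ± 0.66 and did not pass (SE, adjusted p = 0.364 and 0.949 by edgeR).

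**Figure D3:**
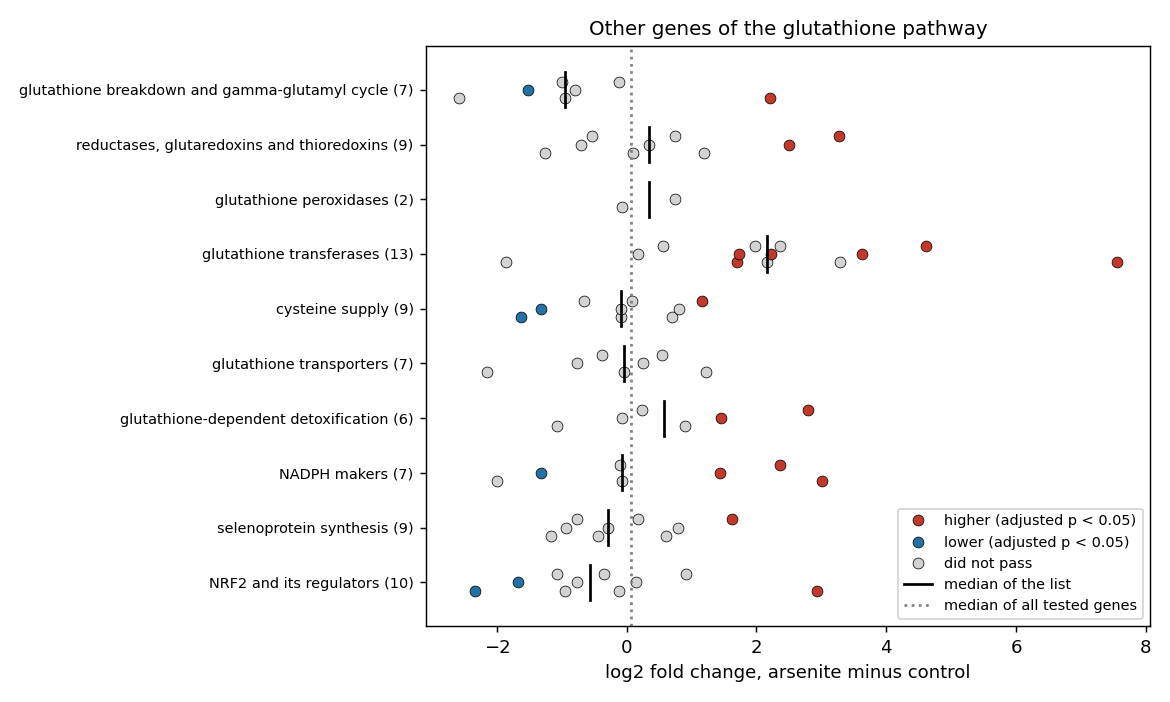
Log2 fold change, arsenite minus control (x axis), of each tested pathway gene outside the 10 members, by role (y axis, number tested in brackets). Black bars are list medians and the dotted line the median of all tested genes (0.07). Of the 13 transferases, whose median is 2.17, 3 had passed the filter through arsenite libraries alone, and the other 10 have a median of 1.86 with 4 called higher. Among those 10, Gstk1, Gstm1 and Gsto2 also needed arsenite libraries to pass.

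Genes for the supply of cysteine and NADPH had calls in both directions too. Of 9 tested genes of cysteine supply 1 rose and 2 fell, with a median of −0.09. Slc7a11, the cystine importer, averaged 117 ± 11.4 CPM with arsenite and 52.0 ± 9.86 CPM in controls (SD, n = 3 each), and rose by 1.16 ± 0.29 on the log2 scale (SE, adjusted p = 0.0253 by edgeR). It kept its call only without arsenite replicate 3, and the highest adjusted p over the other libraries left out was 0.107. Slc1a1, a glutamate transporter that also carries cysteine, averaged 36.9 ± 15.1 CPM with arsenite and 114 ± 12.5 CPM in controls (SD, n = 3 each), and fell by 1.63 ± 0.36 on the log2 scale (SE, adjusted p = 0.0154 by edgeR). Without control replicate 3 or arsenite replicate 1 its call was lost (highest adjusted p = 0.0666).

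Of 7 tested NADPH makers 3 rose and 1 fell, with a median of −0.08. G6pdx, of the pentose phosphate pathway, had 343, 382 and 376 CPM with arsenite and 54.2, 51.2 and 31.95 CPM in controls, and Idh1, the cytosolic isocitrate dehydrogenase, averaged 30.1 ± 4.13 CPM with arsenite and 5.83 ± 0.711 CPM in controls (SD, n = 3 each). Both rose on the log2 scale, by 3.00 ± 0.31 and 2.36 ± 0.40 (SE, adjusted p = 0.00389 and 0.00691 by edgeR), and kept their calls whichever library was left out. Pgd, the other dehydrogenase of that pathway, named after its values were seen, had 31.8, 32.1 and 26.0 CPM with arsenite and 70.3, 73.8 and 79.5 CPM in controls. It fell by 1.31 ± 0.30 on the log2 scale (SE, adjusted p = 0.0183 by edgeR), and lost its call without control replicate 3 or arsenite replicate 1 (highest adjusted p = 0.0698), with log2 fold changes of −1.45 to −1.22 over all 6 libraries left out.

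Of 6 tested genes of glutathione-dependent detoxification 2 rose, with a median log2 fold change of 0.57, and with the block Adh5 was called as well (edgeR adjusted p = 0.0298). Ethe1, the mitochondrial persulfide dioxygenase that acts on glutathione persulfide, had 31.4, 18.0 and 58.8 CPM with arsenite and 4.46, 5.81 and 5.37 CPM in controls, without overlap. It rose by 2.79 ± 0.50 on the log2 scale (SE, adjusted p = 0.00819 by edgeR) and kept its call in all fits with a library left out. Glo1, which clears methylglyoxal with glutathione, averaged 26.5 ± 10.1 CPM with arsenite and 9.66 ± 0.609 CPM in controls (SD, n = 3 each), and rose by 1.45 ± 0.42 on the log2 scale (SE, adjusted p = 0.0407 by edgeR). That call was lost with scaling by library size only (adjusted p = 0.065), with no count filter (0.0502) and without any library other than arsenite replicate 3 (highest adjusted p = 0.149).

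Of 7 tested glutathione transporters none passed by edgeR or by DESeq2, and 1 had an unadjusted p under 0.05. The median log2 fold change was −0.04. Abcc2 and Abcc5, export pumps, had log2 fold changes of −2.16 ± 0.98 and −0.77 ± 0.44 (SE, adjusted p = 0.147 and 0.243 by edgeR).

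Genes that build selenoproteins, the class of Gpx1 and Gpx4, had a median log2 fold change of −0.29, and 1 of 9 tested rose. Sepsecs, which makes the selenocysteine carried by its tRNA, had 26.8, 14.5 and 25.1 CPM with arsenite and 8.43, 6.25 and 6.83 CPM in controls, without overlap. It rose by 1.62 ± 0.45 on the log2 scale (SE, adjusted p = 0.0343 by edgeR), and kept its call only without arsenite replicate 2 (highest adjusted p = 0.137 over the other libraries left out). Sephs1, a relative of selenophosphate synthetase, averaged 14.4 ± 4.40 CPM with arsenite and 32.5 ± 6.80 CPM in controls (SD, n = 3 each, edgeR adjusted p = 0.0641). It passed by DESeq2 (adjusted p = 0.0277), with the replicate block (0.0391) and without arsenite replicate 2 (0.0382).

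Of 10 tested genes of NRF2 and its regulators 1 rose and 2 fell, with a median log2 fold change of −0.56. The list holds NRF2 beside genes that restrain it, so this median gives no direction for the pathway. Nfe2l2, the NRF2 gene, and Keap1 were named after their values were seen. Nfe2l2 had a log2 fold change of 0.91 ± 0.37 and did not pass (SE, adjusted p = 0.112 by edgeR). Keap1 fell, at −2.33 ± 0.64 (SE, adjusted p = 0.0331 by edgeR), a call lost whichever library was left out. Bach1, a repressor that competes with NRF2 for its sites, had 46.4, 49.97 and 47.6 CPM with arsenite and 196.1, 98.2 and 163.8 CPM in controls. It fell by 1.67 ± 0.33 on the log2 scale (SE, adjusted p = 0.0105 by edgeR) and kept its call in all fits with a library left out (highest adjusted p = 0.0498). Bach2, its relative, had 18.8, 29.4 and 11.8 CPM with arsenite and 2.77, 3.02 and 2.07 CPM in controls, so the pair moved in opposite directions. Bach2 rose by 2.93 ± 0.54 on the log2 scale (SE, adjusted p = 0.00887 by edgeR), and lost its call without control replicate 3 (adjusted p = 0.0518). Hmox1, heme oxygenase and a common readout of arsenite exposure, averaged 5.87 ± 3.23 CPM with arsenite and 2.57 ± 3.11 CPM in controls (SD, n = 3 each), and its log2 fold change of 1.18 ± 1.16 did not pass (SE, adjusted p = 0.505 by edgeR).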

How the data were processed

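Embryos of the 2-cell stage gave poly(A) RNA, sequenced as paired-end 150 bp reads, per the labels' protocols. These describe 2 library preparations, NEBNext and a PCR-preamplified cDNA method, without saying which was used. The authors deposited raw counts per gene symbol. The submitters' processing notes name featureCounts 1.6.2, StringTie 2.1.4, DESeq2 1.30.1 and STAR, and the build mm10, with no roles. The annotation and the strand option of counting were not given in the sources used here. Of 18660 rows, 11 had dates in place of symbols (0.0432 to 0.0818% of counts) and were left out.

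Genes passing edgeR's default expression filter (12582) went into edgeR 4.0.16 under R 4.3.3 (TMM, quasi-likelihood F test, two-sided, no covariate, Benjamini-Hochberg adjusted p under 0.05), and the script was tested on simulated data. SE is the absolute log2 fold change over the root of F. The biological coefficient of variation was 0.495. Within a group the smallest chi-square per degree of freedom was 31.8, so no library was a rerun of another that differed by counting error alone. It cannot tell separate preparations of the same RNA from separate samples.

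The members and lists were chosen with earlier results of these data known. Named genes are the 10 members, the 2 tested non-members of lowest p in each pathway list, and Hmox1. Deviations from group means correlated at 0.189, 0.221 and 0.178 between same-numbered libraries and at −0.164 to −0.0238 between others. Part of this contrast is forced, since the deviations within a group cancel out. The numbers were therefore taken as possible pairing and tried as a block, while the main fit has none. Nothing in the labels says what same-numbered libraries have in common. Alternatives were RLE size factors in edgeR, library size only, no filter, at least 10 counts in 3 libraries, DESeq2 1.42.0, limma 3.58.1 (voom), the replicate block, and each library left out. Positions, transcripts and exon lengths come from RefSeq (GRCm38.p6) and GENCODE M21.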

Additional observations from a re-analysis of the deposited data

How the results depend on the processing

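Over all tested genes 2101 were called, 3313 by DESeq2 and 3268 with the replicate block, and 405 to 2002 with a library left out. Of the members 4 were called, and 4 under each of the 7 other settings that kept all libraries, the block included. With a library left out 0 to 4 members were called: 0 without arsenite replicate 1, 1 without arsenite replicate 3 or any control (Gstm6 without control replicate 1, Gpx6 otherwise), and 4 without arsenite replicate 2. These fits hold fewer libraries. Each member kept its direction in all of its fits, 130 in sum. Of the other pathway genes 23 were called, and 6 to 19 with a library left out. Among named genes, Gpx3 reversed to −0.15 without arsenite replicate 2 (range −0.15 to 1.14 over libraries left out), and Gpx7 to 0.41 without control replicate 2 and 0.28 without arsenite replicate 1 (range −0.95 to 0.41). The cause was not tested. The block changed the call of Adh5 and Sephs1 among pathway genes outside the members. Depth limits Gstm6 and Mgst1, which had 8 and 0 control counts.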
